A study of Mus musculus with 16 samples.

Results

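Tex19.1, Ddx4, Mael, Stk31, Dazl, Rbmxl2 and Sycp3 are mouse genes whose main site of expression is the germ line, and some of them are also transcribed in embryonic stem (ES) cells. The members were chosen by gene symbol, with earlier results of these data known, so counts of members called are no independent finding. Each of the 7 was found on the arrays and passed the filter on dim probes, out of 23192 genes tested and 27670 gene names in all.

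Gene expression in pluripotent mouse lines was read on 16 Agilent arrays with a single dye. From the non-obese diabetic (NOD) strain came an EpiSC-like induced pluripotent stem cell (iPS) line, number 6, on 2 arrays (passages 7 and 12), an EpiSC-like ES line, number 1, on 4 (passages 5, 7, 9 and 10), and ES cells on 3 (titled 4K, 43 and 85). Lines labelled non-NOD gave 2 arrays of iPS cells named after epiblast stem cells (EpiSC iPS, titled 3M and 1K), 2 of EpiSC (passages 12 and 20), 1 of 129 ES cells in a condition called epiESM and 2 in a condition called mESM, at passage 8 throughout. Naive ES cells resemble the preimplantation embryo, and primed EpiSC the epiblast after implantation. Feeder fibroblasts were removed from ES lines on gelatin before RNA was taken, per the labels, while EpiSC and EpiSC-like cells were separated mechanically, so state and way of harvest cannot be told apart. Each NOD EpiSC-like group is 1 line sampled at several passages, and both mESM arrays carry 1 source label, so that p-values measure the spread between these arrays, which may be technical. What mESM, epiESM and the other title suffixes mean is not given in the labels.

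During mouse development, primordial germ cells and germ cells switch on a set of genes for transposon silencing, RNA control and meiosis that somatic cells keep off. Many of these genes have CpG-rich promoters that are DNA-methylated in somatic tissues. In mouse ES cells, DNA methylation, histone H3K9 methylation and the PRC1.6 complex, which includes E2F6 and the E-box-binding pair MGA and MAX, are known to hold them down. Transposon silencing in germ cells uses piRNAs, small RNAs loaded on PIWI proteins. Tex19.1 protects germ cells and placenta against retrotransposons, Ddx4 (the mouse vasa homologue) is a helicase of germ granules that handles piRNA precursors, and Mael acts in piRNA-directed silencing. Stk31 encodes a germ cell protein with a tudor and a kinase-like domain. Dazl binds mRNAs and controls their translation, Rbmxl2 (hnRNP G-T) is a testis RNA-binding protein that controls splicing, and Sycp3 is a structural part of the lateral elements of the synaptonemal complex.

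The probes, with the mm7 coordinates given in the file headers and rows, lay on 7 chromosomes. They were at chr11:121257216-121257275 (plus strand) for Tex19.1, named Tex19 in the files, chr13:109754306-109754365 (minus) for Ddx4, chr1:166172164-166172223 (minus) for Mael and chr6:49407352-49407411 (plus) for Stk31. The Dazl probe used lay at chr17:48427556-48427615 (minus), the Sycp3 probe spanned chr10:88027463-88030553 (plus), and that of Rbmxl2, matched by its RefSeq accession because the files use an older name, lay at chr7:103106726-103106785 (plus). A second, dimmer Dazl probe lay at chr17:48435590-48435736 (minus). Exon annotation of that build was not used here.

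All 7 genes had an entry in the RefSeq promoter table (GRCm38.p6, 250 bases before to 50 after the start), Stk31 with 2 starts. These windows held 15 to 38 CpG sites, against a median of 7 over the 32851 windows of the table. Ddx4 had the most, 38, with an observed over expected CpG ratio of 0.978, and Sycp3 the fewest, 15, with a ratio of 0.666, against a median ratio of 0.384 over all windows. The E-box CACGTG, which reads the same on both strands, was present in the windows of 5 of the 7 genes (Ddx4, Mael, Stk31, Rbmxl2 and Sycp3) and in 7.15% of all windows, or 11.3% of the 11378 windows with at least 15 CpG sites. The E2F letters GCGGGAA, or TTCCCGC on the other strand, occurred in Ddx4 and Sycp3 and in 4.6% of all windows, or 10.3% of the CpG-rich ones. Neither motif overlapped the other in any member's window, and the windows of Tex19.1 and Dazl held neither. A match is a run of letters and no evidence of binding. The 250 bases before the start are printed, with motif matches in capitals, for 4 genes that carry a match and for Tex19.1, which carries none, so that both kinds can be seen. They lie at chr11:121145893-121146142 (plus) for Tex19.1, chr13:112652311-112652560 (minus) for Ddx4, chr6:49395289-49395538 (plus, first start) for Stk31, chr7:107209195-107209444 (plus) for Rbmxl2 and chr10:88459337-88459586 (plus) for Sycp3.
Tex19.1: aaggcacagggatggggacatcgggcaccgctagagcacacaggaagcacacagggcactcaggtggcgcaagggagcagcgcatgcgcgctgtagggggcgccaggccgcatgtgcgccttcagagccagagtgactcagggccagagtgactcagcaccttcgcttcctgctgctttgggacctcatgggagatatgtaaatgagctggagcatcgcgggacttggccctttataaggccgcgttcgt
Ddx4: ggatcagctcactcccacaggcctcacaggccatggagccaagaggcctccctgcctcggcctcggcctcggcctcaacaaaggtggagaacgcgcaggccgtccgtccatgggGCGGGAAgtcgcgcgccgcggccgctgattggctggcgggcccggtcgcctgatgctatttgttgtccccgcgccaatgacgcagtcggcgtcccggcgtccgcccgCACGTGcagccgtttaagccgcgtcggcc
Stk31: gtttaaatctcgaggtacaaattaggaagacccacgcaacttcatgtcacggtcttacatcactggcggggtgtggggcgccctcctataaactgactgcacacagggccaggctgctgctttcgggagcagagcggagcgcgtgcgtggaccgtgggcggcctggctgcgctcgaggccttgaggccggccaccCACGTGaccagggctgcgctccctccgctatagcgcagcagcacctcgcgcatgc
Rbmxl2: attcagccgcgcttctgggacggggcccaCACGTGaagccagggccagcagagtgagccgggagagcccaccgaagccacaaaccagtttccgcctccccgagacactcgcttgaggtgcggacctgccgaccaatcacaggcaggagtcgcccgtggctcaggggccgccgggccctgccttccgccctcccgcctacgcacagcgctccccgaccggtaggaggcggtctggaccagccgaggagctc
Sycp3: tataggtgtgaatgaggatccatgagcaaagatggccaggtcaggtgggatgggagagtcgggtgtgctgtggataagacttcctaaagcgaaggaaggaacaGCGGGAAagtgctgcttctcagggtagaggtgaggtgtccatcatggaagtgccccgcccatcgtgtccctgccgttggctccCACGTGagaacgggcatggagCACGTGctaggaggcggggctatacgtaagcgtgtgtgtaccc

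**Figure D1:**
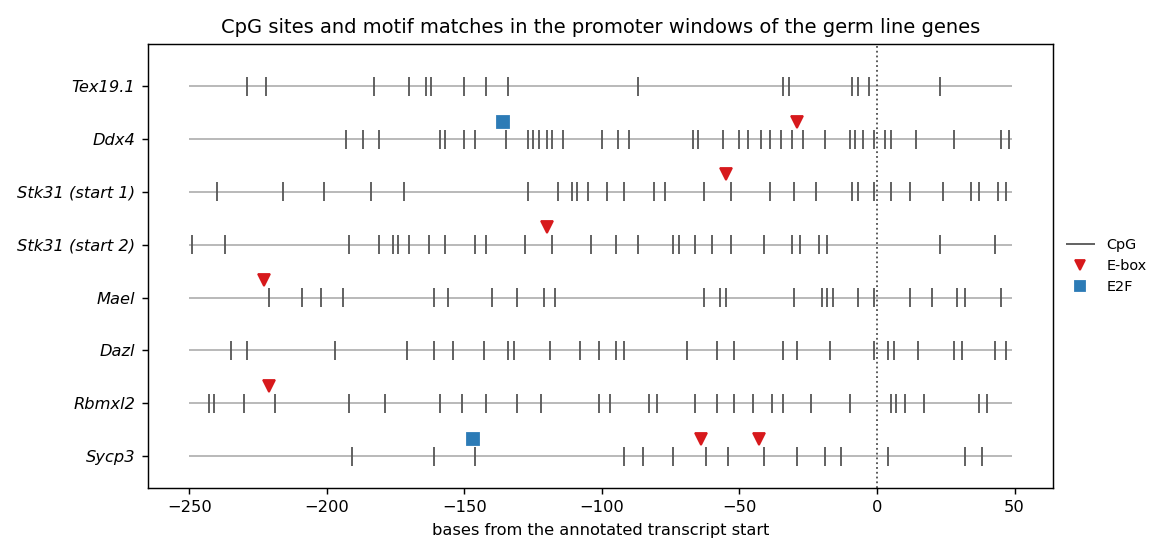
The horizontal axis gives bases from the annotated transcript start (dotted line), and each line is 1 promoter window, with ticks for CpG sites, triangles for E-box and squares for E2F letters. E-boxes are seen in 5 genes, 2 of them in Sycp3, and CpG sites crowd the Ddx4 window (38) more than those of Sycp3 (15) or Tex19.1 (16).

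Levels below are log2 of the processed signal relative to the 75th percentile of the same array, so a value of 0 marks that percentile, and levels of different genes are not compared. A probe counts as well above background where the scanner software marked it so. Across arrays, between 26.3% (NOD ES 4K) and 88.5% of gene spots were well above background. Over all genes, the median difference was -0.27 for NOD EpiSC-like minus NOD ES, -0.34 for EpiSC minus mESM and 0.42 for EpiSC iPS minus EpiSC, and quantile normalization moved these medians to -0.02, -0.24 and 0.04, far less than the members' differences. The arrays titled NOD-ES 4K and iPS_EpiSC 1K stand apart from their groups. The SD of the gene-wise difference from the NOD ES 43 and 85 arrays was 0.387 and 0.397 for iPS_EpiSC 1K, against 0.963 from iPS_EpiSC 3M. For NOD-ES 4K the SD was 0.697 from iPS_EpiSC 3M, against 1.13 and 1.15 from NOD ES 43 and 85. Both lie on 1 slide. Each was thus nearer to an array of the other's group, and whether the labels of these 2 arrays were exchanged was not tested. An exchange would change what the NOD ES and EpiSC iPS values stand for. They are used under their labels, and counts without both are given. The mESM arrays differed with an SD of 0.2, the smallest of all pairs, and results that lean on them are also given with both averaged into 1 sample.

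The 10 naive ES markers (such as Zfp42 and Dppa5a) averaged -1.81 to -0.97 in the NOD EpiSC-like arrays, against 3.75 to 5.85 in NOD ES. Pou5f1, the pluripotency factor Oct4, which EpiSC share with ES cells, fell by 6.00 ± 0.57 (SE) in NOD EpiSC-like cells against NOD ES cells (limma, adjusted p = 1.1e-05), and was 3.13 ± 0.66 lower than in EpiSC (adjusted p = 0.00864). The label EpiSC-like is thus kept as a name, with this marker weak in those arrays. Of 10 primed epiblast markers, 9 were lower in NOD EpiSC-like cells than in EpiSC. Against NOD ES cells, 7 of the 10 were higher and 3 lower (median 1.91), where 38.7% of all genes were called. The 14 fibroblast markers averaged 4.07 to 5.08 in NOD EpiSC-like arrays, 4.54 and 1.38 in EpiSC iPS 3M and 1K, 3.87 and 3.78 in EpiSC, 3.02, 1.52 and 1.42 in NOD ES 4K, 43 and 85, 3.40 in 129 ES epiESM and -0.98 and -0.96 in mESM. In a bulk sample, fewer cells of a type and less RNA per cell cannot be told apart.

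**Figure D2:**
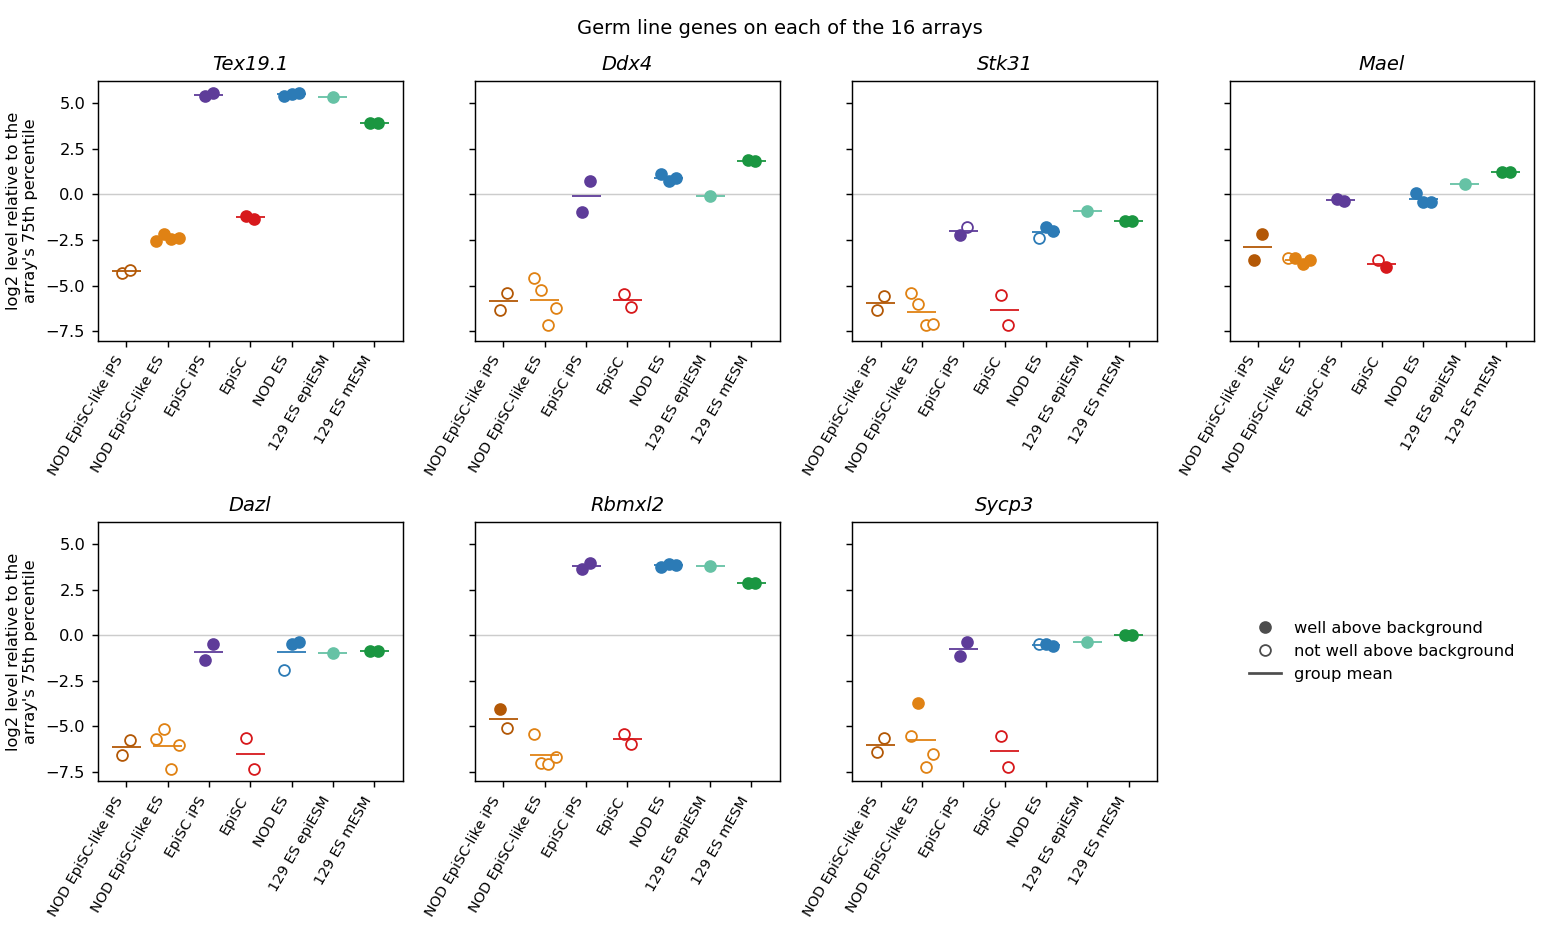
Each panel is 1 gene, with the log2 level relative to the 75th percentile of the array on the vertical axis and the 7 groups on the horizontal one. Each point is an array (filled where well above background, open where not) and each short line a group mean. In every panel the EpiSC-like and EpiSC arrays lie below all ES and EpiSC iPS arrays, and the share of all genes that do so is not given.

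On the 16 arrays, the 7 genes fell into the same pattern. All 8 arrays of NOD EpiSC-like cells and EpiSC lay below all 8 arrays of EpiSC iPS and ES cells, for each member. The share of all genes that split the arrays in this way is not given. The split is therefore a description and no result about the members. Pairwise Pearson correlations between members ran from 0.877 to 0.984 over the 16 arrays, which share cell state and slides, and describe this split.

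Among the genes of transposon control, Tex19.1 had the clearest graded levels. It stood at -4.31 and -4.12 in NOD EpiSC-like iPS line 6, neither well above background, and at -2.45, -2.56, -2.39 and -2.15 in EpiSC-like ES line 1 at passages 5, 7, 9 and 10, against 5.38, 5.52 and 5.58 in NOD ES 4K, 43 and 85. EpiSC iPS had 5.40 and 5.57, against -1.20 and -1.32 in EpiSC. The 129 ES arrays had 5.37 in epiESM, against 3.94 and 3.95 in mESM. NOD EpiSC-like iPS was thus lowest, followed by EpiSC-like ES, EpiSC, mESM, then epiESM, and the ranges of EpiSC iPS and NOD ES at the top overlapped. Tex19.1 was the one member for which the groups at the low end did not overlap.

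Ddx4 was well above background on none of the 6 NOD EpiSC-like arrays (-7.15 to -4.60) and on all 3 NOD ES arrays (1.11, 0.74 and 0.91). It had -0.94 and 0.75 in EpiSC iPS, against -5.44 and -6.15 in EpiSC, neither of these last well above background. It was highest in mESM, at 1.87 and 1.84, and stood at -0.11 in epiESM. The EpiSC iPS range overlapped both NOD ES and epiESM, and the EpiSC and EpiSC-like ranges overlapped each other.

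Mael kept a measurable level in most arrays, 14 of 16 being well above background. It had -3.59 and -2.18 in NOD EpiSC-like iPS and -3.81, -3.50, -3.57 and -3.47 in EpiSC-like ES at passages 5, 7, 9 and 10, against 0.08, -0.41 and -0.42 in NOD ES 4K, 43 and 85. EpiSC iPS had -0.23 and -0.38, against -3.59 and -3.99 in EpiSC. The order at the top differed from that of Tex19.1, with mESM (1.24 and 1.23) above epiESM (0.57), and both above NOD ES and EpiSC iPS, which overlapped.

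Stk31 was well above background on 6 of 16 arrays, all of ES or EpiSC iPS cells. It ran from -7.18 to -5.42 in the 6 NOD EpiSC-like arrays, none above background, against -2.40, -1.76 and -2.03 in NOD ES 4K, 43 and 85, of which the first was not well above background. EpiSC iPS had -2.25 and -1.76, the second not well above background, against -5.50 and -7.18 in EpiSC. The highest arrays were epiESM (-0.91) and mESM (-1.44 and -1.46).

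Of the RNA-binding members, Dazl has 2 probes. The one used in the fit was well above background on 7 arrays, all of them ES or EpiSC iPS. It ran from -7.36 to -5.15 in NOD EpiSC-like cells, against -1.92 (not well above background), -0.49 and -0.40 in NOD ES. EpiSC iPS had -1.37 and -0.48, against -5.64 and -7.37 in EpiSC, and the 129 ES arrays had -0.97 in epiESM, against -0.85 and -0.88 in mESM. The ranges of NOD ES and EpiSC iPS overlapped and took in those of both 129 groups, which did not overlap each other. The second Dazl probe was well above background on 2 of 6 NOD EpiSC-like arrays, EpiSC-like ES passages 9 (-4.59) and 10 (-4.68), against -2.51 (not well above background), -2.37 and -2.47 in NOD ES. It was 2.24 ± 0.33 (SE) lower in NOD EpiSC-like than in NOD ES cells (limma adjusted p = 0.000292) and at least 4.58-fold lower in EpiSC than in mESM (adjusted p = 0.000314). It was not well above background on any EpiSC iPS or EpiSC array.

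Rbmxl2 was -4.07 and -5.12 in NOD EpiSC-like iPS, the first well above background, and -7.09 to -5.44 in EpiSC-like ES, none above background, against 3.75, 3.92 and 3.86 in NOD ES. EpiSC iPS had 3.63 and 3.94, against -5.41 and -5.96 in EpiSC, and epiESM had 3.79, against 2.86 and 2.84 in mESM. As for Tex19.1, mESM was lowest among the ES groups, and NOD ES, EpiSC iPS and epiESM overlapped.

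Sycp3, the meiotic member, was above background on 1 of 6 NOD EpiSC-like arrays, EpiSC-like ES passage 10, at -3.71. The others ran from -7.21 to -5.53, against -0.51, -0.51 and -0.60 in NOD ES, the first of these (4K) not well above background. EpiSC iPS had -1.15 and -0.40, against -5.51 and -7.24 in EpiSC. Levels of 0.03 and -0.01 made mESM the highest group, above epiESM at -0.38.

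The first comparison asks how these genes differ between the EpiSC-like and the ES state within NOD lines. All 7 fell in NOD EpiSC-like cells (n = 6) against NOD ES cells (n = 3), where 22.0% of all genes tested were called lower and 16.7% higher by limma at an adjusted p under 0.05. Tex19.1, measured on 4 of 6 EpiSC-like arrays, fell by 8.80 ± 0.15 on the log2 scale (SE, limma adjusted p = 4.67e-11), and Mael, measured on 5 of 6, fell by 2.98 ± 0.28 (adjusted p = 9.23e-06). Rbmxl2 and Sycp3 were well above background on 1 of 6 EpiSC-like arrays each. Their fitted falls therefore rest mostly on background values and their size is uncertain, with Rbmxl2 at -9.42 ± 0.36 (limma adjusted p = 4.09e-08) and Sycp3 at -5.34 ± 0.66 (adjusted p = 6.78e-05). Ddx4, Stk31 and the Dazl probe used were well above background only on ES and EpiSC iPS arrays. They passed the filter on dim probes through those arrays, so only a fall could be called. Rbmxl2 and Sycp3, with 1 EpiSC-like array each and no EpiSC array well above background, also needed those arrays to pass. The calls of all these genes add no independent support to the count of 7. With no EpiSC-like array well above background, the folds of Ddx4, Stk31 and the Dazl probe used are given as lower bounds. For these, a dimmer signal was replaced by the lowest level of any probe well above background on the same array. On the NOD ES side, the 4K values of Dazl and Stk31 were kept though not well above background. The bounds are thus approximate. Ddx4 was at least 38-fold lower (limma adjusted p = 3.13e-06), the Dazl probe used at least 10.5-fold (adjusted p = 2.56e-05) and Stk31 at least 4.79-fold lower (adjusted p = 3.25e-05). The second Dazl probe gave a smaller difference, 4.74-fold lower, so the probes disagree on its size.

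The count was also 7 without the 2 arrays that stand apart, where 51.7% of all genes were called in either direction, and with the slide as a random block, where 36.7% were, against 38.7% with all arrays and no block. Within slide 4, which held EpiSC-like ES passage 10 and NOD ES 43 and 85, the 7 differences ran from -10.87 for Rbmxl2 to -3.05 for Mael, with -3.15 for Sycp3. With normexp background correction, an alternative that raised the median of all genes to 0.59, 3 members were called lower (Tex19.1, Ddx4 and Rbmxl2), and Stk31 had a difference of 0.33 with the opposite sign (adjusted p = 0.671). Fibroblast markers moved with this comparison, 10 of 14 being higher in NOD EpiSC-like cells, with a median of 2.04, and 14 of 14 without the arrays that stand apart (median 2.69). Their part in the result was not tested.

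The second comparison sets EpiSC against 129 ES cells in mESM, outside the NOD strain. The primed epiblast markers averaged 2.88 on both EpiSC arrays, against 1.09 to 1.32 in EpiSC-like ES and -0.68 and -0.54 in EpiSC-like iPS. EpiSC and EpiSC-like cells are thus not taken as the same state. All 7 genes fell in EpiSC (n = 2) against mESM (n = 2), with 12.7% of all genes called lower and 11.9% higher. Here too only a fall could be called for Ddx4, Stk31 and the Dazl probe used, given the arrays through which they passed the filter. Rbmxl2 and Sycp3, well above background on no EpiSC array, also needed ES or EpiSC iPS arrays to pass it. Their calls likewise add no independent support. Rbmxl2 was at least 139-fold lower (limma adjusted p = 1.57e-06), Ddx4 at least 69.5-fold (adjusted p = 4.37e-05) and Sycp3 at least 19.4-fold lower (adjusted p = 0.000542). The bound was 10.6-fold lower for Dazl (limma adjusted p = 0.000398) and 7.01-fold for Stk31 (adjusted p = 0.000296). The genes with a measured level on both sides, Tex19.1 and Mael (the second on 1 of 2 EpiSC arrays), fell by 5.21 ± 0.21 (limma adjusted p = 1.28e-07) and 5.03 ± 0.38 (adjusted p = 8.42e-06). With both mESM arrays averaged into 1 sample, 7 were again called, and with normexp 4 (Tex19.1, Ddx4, Mael and Rbmxl2). No slide held arrays of both groups. Here 11 of 14 fibroblast markers were higher in EpiSC (median 5.11). The epiESM array, which enters no comparison, had a fibroblast marker mean of 3.40, against 3.87 and 3.78 in EpiSC. Each of the 7 genes was well above background in it. It is 1 array without a replicate, and the part of fibroblasts was not tested.

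The third comparison sets EpiSC iPS lines against EpiSC, and it shares the EpiSC arrays with the second, so the directions are not independent. All 7 genes rose in EpiSC iPS (n = 2) against EpiSC (n = 2). For Ddx4, Stk31 and the Dazl probe used, only a rise could be called, given the arrays through which they passed the filter. Rbmxl2 and Sycp3, well above background on no EpiSC array, also needed ES or EpiSC iPS arrays to pass it. Of all genes, 12.1% were called higher and 8.97% lower. Here too no slide held arrays of both groups, so group and slide cannot be told apart. Tex19.1 rose by 6.74 ± 0.21 (SE, limma adjusted p = 1.48e-08) and Mael by 3.49 ± 0.38 (adjusted p = 0.000118). Rbmxl2 was at least 265-fold higher (limma adjusted p = 1.58e-06), Ddx4 at least 18-fold (adjusted p = 0.00035) and Sycp3 at least 11.2-fold higher (adjusted p = 0.00142). The bound was 10.1-fold higher for Dazl (limma adjusted p = 0.000508) and 4.79-fold for Stk31 (adjusted p = 0.000742). The Stk31 bound includes the iPS_EpiSC 1K value, which was not well above background. Of the fibroblast markers, 2 of 14 were lower in EpiSC iPS and none higher, with a median of -0.68. Without iPS_EpiSC 1K and NOD-ES 4K, all 7 members were still called higher, where 42% of all genes were called in either direction against 21.1% with these arrays, while 6 of 14 fibroblast markers were higher and 2 lower, the remaining iPS_EpiSC 3M array having a fibroblast mean of 4.54. With normexp 2 members, Tex19.1 and Rbmxl2, were called. The part of fibroblasts in this comparison was not tested.

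**Figure D3:**
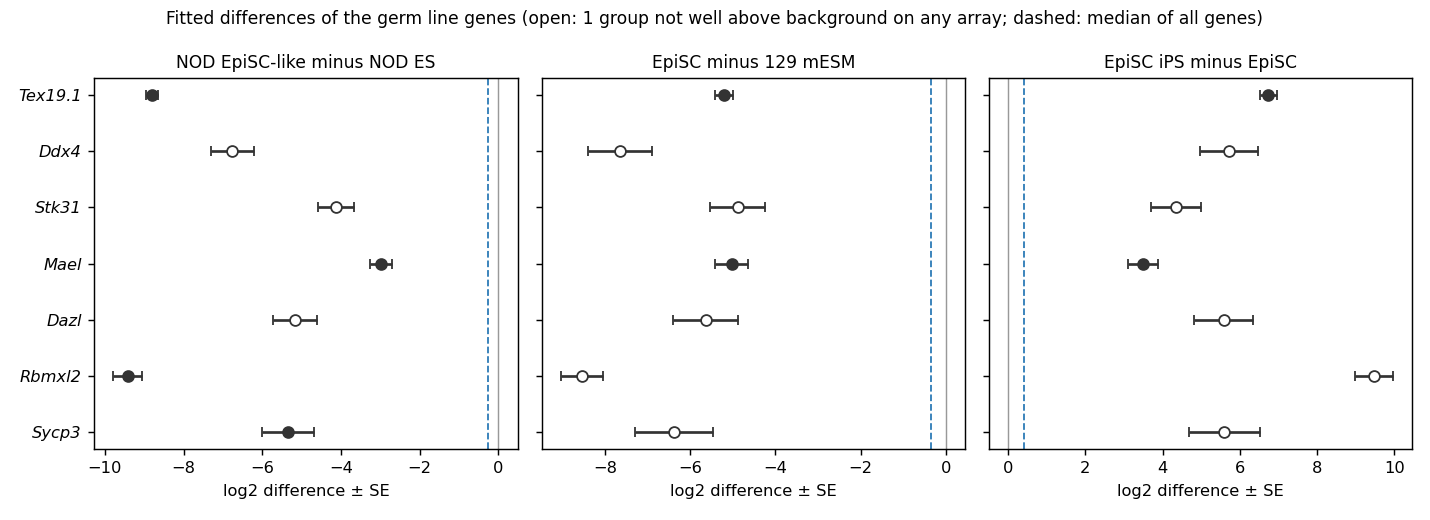
Points give the fitted log2 difference with its SE for each gene (rows) in 3 comparisons (panels), and open points mark genes that 1 group did not show well above background on any array, where the fitted value is no bound. The dashed line is the median of all genes. All 7 genes lie below it in both left panels and above it in the third, Mael at -2.98 in NOD lines and at 3.49 in EpiSC iPS.

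**Figure D4:**
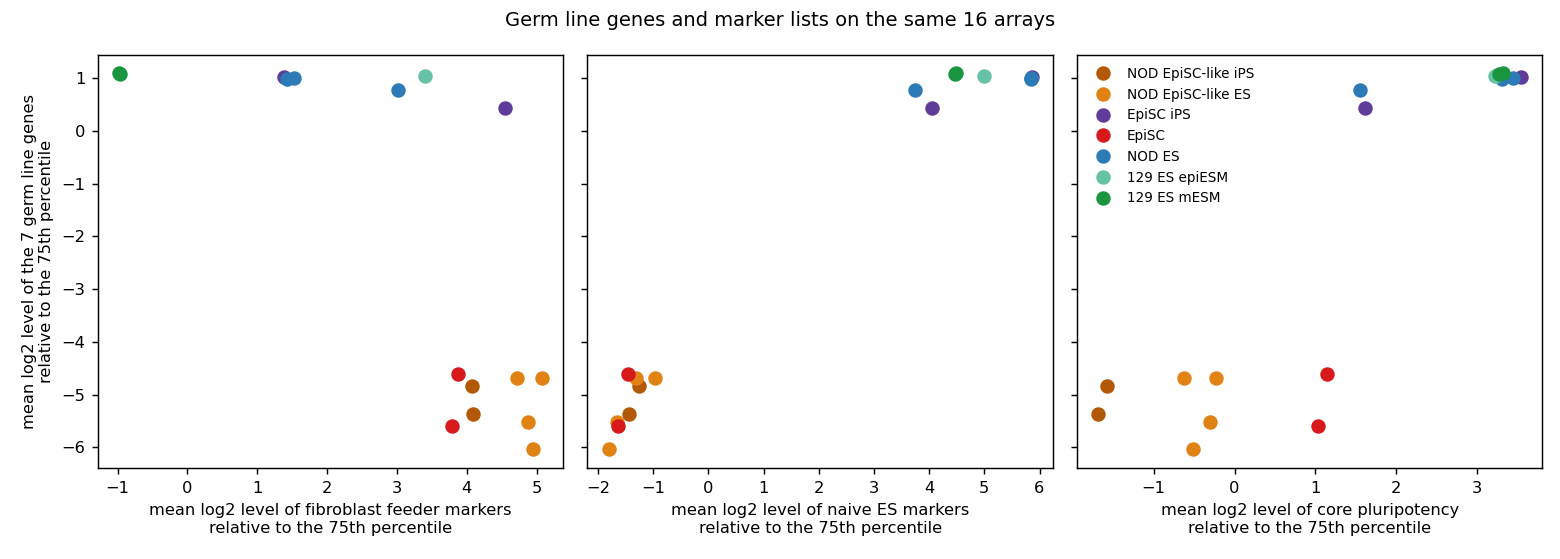
Each point is 1 of the 16 arrays, with the mean log2 level of the 7 germ line genes (vertical) against the mean log2 level of a marker list (horizontal, 1 list a panel), both relative to the 75th percentile. Means of low arrays rest largely on values not well above background. The iPS_EpiSC 3M array has a germ line mean of 0.44 and a fibroblast mean of 4.54. EpiSC passages 12 and 20 have germ line means of -4.61 and -5.60 and fibroblast means of 3.87 and 3.78. These are single arrays, and the part of fibroblasts was not tested.

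Fewer members were called among the EpiSC-like and EpiSC groups, and among the ES and EpiSC iPS groups. Tex19.1 was 2.04 ± 0.17 lower in NOD EpiSC-like cells than in EpiSC (limma adjusted p = 5.42e-05), the only 1 of the 7 members called, where 16.1% of all genes were called in either direction. Within slides 1 and 3 the difference was -2.23 and -1.13, and with normexp it was 0.20 and not called (adjusted p = 0.715). Without the passage 7 array of iPS line 6, Mael was also called (0.91, limma adjusted p = 0.0246). Ddx4, Stk31 and the Dazl probe used were below background on both sides and have no fold, the second Dazl probe differed by 0.99 ± 0.38 (limma adjusted p = 0.113), and Sycp3 (0.50 ± 0.76) and Rbmxl2 (0.11 ± 0.42) did not pass the test.

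Between the NOD EpiSC-like lines, 2 members were called, with 25.7% of all genes called in either direction. Tex19.1 was at least 2.88-fold lower in iPS line 6 than in ES line 1 (limma adjusted p = 5.35e-05), and within slide 1 the difference was -1.74. Rbmxl2 was at least 1.08-fold higher in iPS line 6 (adjusted p = 0.00742), resting on 1 well-measured array, passage 7. Without that array its difference was 1.44 and did not pass (limma adjusted p = 0.077), while that of Mael, 0.71 ± 0.33 over all arrays, was 1.41 and did (adjusted p = 0.00885). With normexp neither was called, and the Tex19.1 difference was 1.13, with the opposite sign. Normexp put every member at -0.03 on the passage 7 array of iPS line 6. The main values on that array ran from -6.56 (Dazl) to -3.59 (Mael), so normexp did not resolve the members there.

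NOD ES and EpiSC iPS cells were each compared with mESM, sharing these 2 arrays. The mESM arrays shared no slide with either group. In NOD ES minus mESM, 2 members were called, against 8.92% of all genes in either direction. Tex19.1 was 1.55 ± 0.19 higher (limma adjusted p = 0.00128) and Mael 1.48 ± 0.35 lower (adjusted p = 0.0249). In EpiSC iPS minus mESM, again 2 were called, against 10.6% of all genes, with Tex19.1 1.54 ± 0.21 higher (limma adjusted p = 0.00211) and Mael 1.54 ± 0.38 lower (adjusted p = 0.0272). With both mESM arrays averaged, Tex19.1 was called in both comparisons (adjusted p = 0.034 and 0.0374) and Mael in neither (0.189 and 0.159). Fibroblast markers were higher in both, and their part was not tested. The counts were 7 of 14 in NOD ES minus mESM (median 3.05) and 10 of 14 in EpiSC iPS minus mESM (median 4.06). The 129 ES array in epiESM, at 5.37 for Tex19.1 and 0.57 for Mael, also differed from mESM in these directions. The part of strain and of culture condition was not tested. Without the 2 arrays that stand apart, Ddx4 was also lower in EpiSC iPS than in mESM (-2.79, limma adjusted p = 0.0343), against -1.95 ± 0.75 with them (adjusted p = 0.126).

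Whether the state difference itself differed between NOD and other lines was tested as an interaction, the first comparison minus the second. Outside NOD, its ES side is mESM alone. For Tex19.1 the single 129 ES array in epiESM had 5.37, against 3.94 and 3.95 in mESM. For Mael it had 0.57, against 1.24 and 1.23. What strain, culture condition and the difference between EpiSC-like cells and EpiSC each add was not tested. Of the 7 members 2 were called, against 12.5% of all genes. Tex19.1 differed more between states in NOD lines, by -3.59 ± 0.25 (limma adjusted p = 3.76e-05), and Mael less, by 2.04 ± 0.47 (adjusted p = 0.017). Tex19.1 was also called with quantile normalization (adjusted p = 1.59e-05) and with averaged mESM arrays (0.00106). Mael was not called in these (adjusted p = 0.0748 and 0.0792) nor without EpiSC passage 20 (0.0891), and with normexp neither gene was (0.399 for Tex19.1 and 0.165 for Mael). The other 5 did not pass the test, with values from -0.88 ± 0.62 for Rbmxl2 to 1.05 ± 1.13 for Sycp3, whose low sides lie in or near the background.

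Wider lists of germ line genes, which exclude the 7 members and were drawn up from general knowledge, give the setting, with 130 genes tested. They passed the same filter on dim probes. Some, such as Tex14, were not well above background on any EpiSC-like or EpiSC array. For those, only a fall could be called in these cells, or a rise in EpiSC iPS. The direction of the list counts is thus partly fixed by the filter. Of 20 genes of piRNA and transposon defence, 12 were lower and 2 higher in NOD EpiSC-like cells (median -1.94), 11 lower and 2 higher in EpiSC against mESM (median -2.05), and 10 higher and 2 lower in EpiSC iPS against EpiSC (median 2.0). Morc1, needed for transposon silencing in male germ cells, fell by 8.27 ± 0.63 in NOD EpiSC-like cells (limma adjusted p = 2.37e-06), was at least 85.2-fold lower in EpiSC and at least 194-fold higher in EpiSC iPS. Piwil2, a PIWI protein, fell by 4.39 ± 0.65 in NOD EpiSC-like cells (adjusted p = 0.000234). The tudor protein gene Tdrd12 fell by 6.80 ± 0.26 there (adjusted p = 3.79e-08). Of the 6 NOD EpiSC-like arrays, Morc1 was well above background on 1, Piwil2 on 2 and Tdrd12 on 3. These fitted falls rest partly or mostly on background values, so their size is uncertain.

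Among 22 genes of the synaptonemal complex and meiotic recombination, 15 were lower and none higher both in NOD EpiSC-like cells (median -2.77) and in EpiSC (median -3.03). The filter limits what none higher can mean here. Hormad2, for example, was well above background on 0 of 6 NOD EpiSC-like arrays. In EpiSC iPS 11 were higher and none lower (median 2.47). Stra8, which starts meiosis under retinoic acid, fell by 5.76 ± 0.64 in NOD EpiSC-like cells (limma adjusted p = 3.29e-05) and by 8.35 ± 0.89 in EpiSC (adjusted p = 8.17e-05), and rose by 5.43 ± 0.89 in EpiSC iPS (adjusted p = 0.00145). The meiotic cohesin genes Stag3 and Smc1b fell by 4.66 ± 0.45 and 4.37 ± 0.47 in NOD EpiSC-like cells (limma adjusted p = 1.15e-05 and 2.46e-05). Of the 6 NOD EpiSC-like arrays, Stag3 was well above background on 6, Stra8 on 3 and Smc1b on 1. In EpiSC, Stra8 was so on 1 of 2 arrays. The sizes of the Stra8 and Smc1b differences are thus uncertain. Under normexp the medians of this list and of the piRNA list were 0.18 and 0.28 in NOD EpiSC-like cells, below the 0.59 of all genes, with 7 and 3 genes called lower.

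Of 12 RNA-binding germ cell genes beside Dazl and Rbmxl2, 6 were lower and 1 higher in NOD EpiSC-like cells (median -0.62), 5 lower in EpiSC (median -0.73), and 3 higher and 1 lower in EpiSC iPS (median 0.92). Dnd1, which shields germ cell mRNAs from microRNAs, fell by 2.27 ± 0.24 in NOD EpiSC-like cells (limma adjusted p = 2.52e-05). Ddx25, a testis helicase, was 1.69 ± 0.49 lower in NOD EpiSC-like than in NOD ES cells (limma adjusted p = 0.0179), and Cpeb1, which controls polyadenylation in oocytes, was 1.87 ± 0.59 higher (adjusted p = 0.0255). For both the ranges of these groups overlapped and the EpiSC-like lines differed, iPS line 6 being 5.42 ± 0.59 higher than ES line 1 for Ddx25 (limma adjusted p = 0.000111) and 2.69 ± 0.71 higher for Cpeb1 (adjusted p = 0.0173).

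Of 13 primordial germ cell genes, some of which, Nanog for one, also serve naive pluripotency, in NOD EpiSC-like cells 10 were lower and 2 higher (median -2.50), in EpiSC 6 were lower and 1 higher (median -2.06), and in EpiSC iPS 5 were higher and 1 lower (median 0.93). Dppa3 (Stella), a maternal and germ cell protein that guards methylation, was at least 61.4-fold lower in NOD EpiSC-like cells (limma adjusted p = 1.66e-05) and at least 92.8-fold higher in EpiSC iPS than in EpiSC (adjusted p = 0.000288). Cxcr4, the receptor that guides migrating germ cells and is also used by the primitive streak, was 4.61 ± 0.55 higher in EpiSC than in mESM (adjusted p = 0.000167). It was well above background on 1 of 2 mESM arrays, so the size is uncertain.

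Among genes of late sperm formation, the share called was 26.7% in NOD EpiSC-like cells, 20% in EpiSC and 20% in EpiSC iPS, below the 38.7%, 24.6% and 21.1% of all genes. Of 15 spermatid genes 2 were higher and 2 lower in NOD EpiSC-like cells (median -0.01), 1 higher and 2 lower in EpiSC (median -0.64), and 2 higher and 1 lower in EpiSC iPS (median 0.95). Ldhc, the sperm lactate dehydrogenase, was at least 5.76-fold lower in NOD EpiSC-like cells (limma adjusted p = 3.39e-05), while Crem, a transcription factor of spermatids with somatic forms, was 1.76 ± 0.21 higher (adjusted p = 4.68e-05). Of 11 oocyte genes 2 were higher and 3 lower in NOD EpiSC-like cells (median -1.18), 1 higher and 3 lower in EpiSC (median -1.20), and 3 higher in EpiSC iPS (median 1.38), shares of 45.5%, 36.4% and 27.3%. Gdf9, an oocyte growth factor, was 3.46 ± 0.32 higher in NOD EpiSC-like cells (limma adjusted p = 9.12e-06), and Zp3, a coat protein of the egg, fell by 1.79 ± 0.42 (adjusted p = 0.00486).

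Of 20 genes known to be kept off by promoter methylation or PRC1.6, some of them also in the lists above, 11 were lower in NOD EpiSC-like cells (median -2.77) and 13 in EpiSC (median -3.72), with none higher, and 10 were higher in EpiSC iPS with none lower (median 3.69). These counts too are partly fixed by the filter. Tex14, a part of germ cell bridges, was at least 14.8-fold lower in NOD EpiSC-like cells (limma adjusted p = 6.67e-05), and the X-linked homeobox gene Rhox5 fell by 6.93 ± 0.79 in EpiSC (adjusted p = 0.000124). A list of 23 genes drawn up around silencing also holds Tet1 and Tet2, which act to remove DNA methylation. Of the 23, 17 were lower in NOD EpiSC-like cells (median -1.65), 8 lower and 1 higher in EpiSC (median -0.76), and 11 higher and 1 lower in EpiSC iPS (median 0.87). Dnmt3l, the cofactor of de novo methylation, fell by 7.97 ± 0.28 in NOD EpiSC-like cells (limma adjusted p = 3.35e-08) and rose by 8.96 ± 0.39 in EpiSC iPS (adjusted p = 4.77e-07). Uhrf1, which brings the maintenance methyltransferase to DNA, fell by 3.47 ± 0.18 in NOD EpiSC-like cells (adjusted p = 2.42e-07) and differed by -0.48 ± 0.25 in EpiSC from mESM (adjusted p = 0.195). E2f6 was 0.95 ± 0.25 higher in EpiSC (limma adjusted p = 0.0166), and Tet1, which oxidises methylcytosine, fell by 3.52 ± 0.41 in EpiSC (adjusted p = 0.000151).

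**Figure D5:**
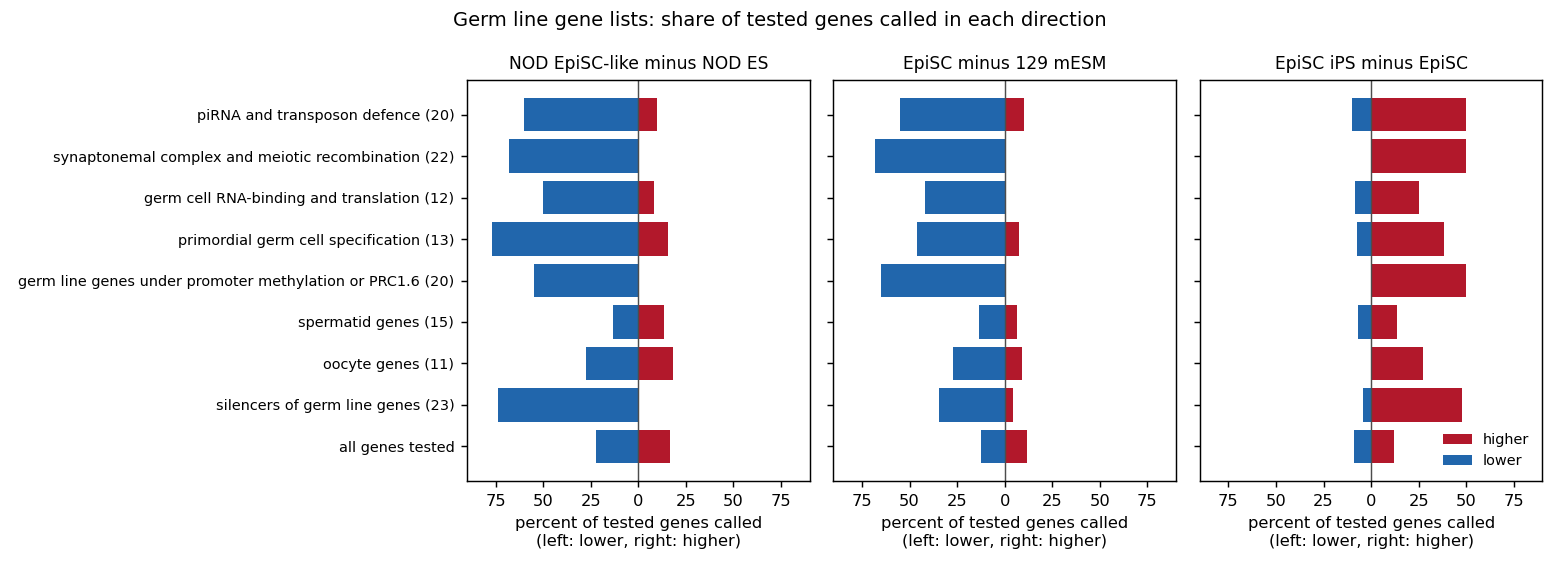
Bars give the percent of tested genes of each list called lower (left) and higher (right) in 3 comparisons (panels), with the number tested in brackets and all 23192 genes in the lowest bar. The synaptonemal list has 15 of 22 lower and none higher in both left panels, while spermatid genes have 2 of 15 either way in NOD EpiSC-like cells. Genes that passed the filter only through ES and EpiSC iPS arrays could be called in a single direction.

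For each member, the 3 genes whose levels were most like it by Pearson correlation over the 16 arrays were looked up among all genes tested. Tex19.1 was most like Nop2 (0.992), Gm1947 (0.990) and Ahsa1 (0.989), and Rbmxl2 most like Kdf1 (0.993), Frrs1 (0.990) and Mybl2 (0.990). Dppa4, a gene of pluripotent and early germ cells, was the nearest gene to Sycp3 (0.992) and Dazl (0.988) and the second nearest to Ddx4 (0.980) and Stk31 (0.982). Ddx4 was nearest to Ppm1n (0.989), Stk31 to the unnamed transcript AK082760 (0.990) and Mael to Psma8 (0.979), a testis proteasome subunit. Zfp42 was also near to Dazl (0.986), and the germ cell gene Hormad2 to Ddx4 (0.980). These correlations follow the split between the 8 low and 8 high arrays and say nothing of shared control.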

How the data were processed

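RNA was hybridised to 16 Agilent arrays in 1 colour (design 014868, coordinates of build mm7, per the file headers). Whether each array had its own culture is not stated. The deposited scanner files hold each spot's intensity as processed by Feature Extraction 10.1.1.1, per the file headers, already background-subtracted and, for dim spots, replaced by a surrogate, so low levels have no exact order. The deposited value table holds log2 values whose columns share 1 distribution (median 6.93). Limma is named, with no settings, per the submitters' processing notes, and any further centring of the table is unknown.

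Control spots (1639 of 45018 features) and outlier spots were removed, spots of a probe averaged, and log2 of the processed signal taken minus the array's 75th percentile. Probes well above background on at least 2 of 16 arrays were kept (34334 of 41174), and the probe with the highest mean stood for its gene. Through RefSeq, 22951 probes were named by accession, 6659 by current symbol and 3109 by an older one, while 8455 kept the file's name. In R 4.3.3, limma 3.58.1 (lmFit and eBayes) fitted 1 mean per group over all 16 arrays. A gene was called where its p, adjusted by Benjamini-Hochberg over all 23192 genes, was under 0.05. The NOD EpiSC-like mean weights both lines equally, and epiESM, a single array, enters no comparison. The fit was tested on simulated data. Arrays have no read depth, and their number limits the precision.

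Members and lists were chosen with earlier results of these data known. Named genes are the 7 members, up to 4 genes of each germ line list with the largest difference (called ones first), of which some are shown, and the 3 genes most like each member. Marker genes (4 lists) serve as checks. Alternatives were normexp (offset 50), quantile normalization, the deposited table, other filters, the mean of probes, the slide as a random block, averaged mESM arrays, no doubtful arrays and each array left out.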

Additional observations from a re-analysis of the deposited data

Results flagged for a closer look

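By the interaction test, the NOD state difference minus that of EpiSC against mESM was -3.59 on the log2 scale for Tex19.1. For Mael it was 2.04, in the opposite direction. The part of strain and of culture condition in both was not tested. The 2 NOD EpiSC-like lines differed in their distance from NOD ES cells by -1.83 for Tex19.1 and by 1.96 for Rbmxl2 (iPS line 6 minus ES line 1). In NOD EpiSC-like ES cells, the one group with 4 arrays, no array stood apart from the others beyond Dixon's limit for any member.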

How the results depend on the processing

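The 3 comparisons of states kept 7 members called under quantile normalization, the deposited table, no filter, the mean of probes, slide as a block, averaged mESM arrays and without both doubtful arrays, and 5 with the stricter filter, which removes Dazl and Stk31. Leaving out each array in turn gave 7 to 7 in all 3. Normexp left 3 members called in the NOD state comparison, 4 in EpiSC against mESM, 2 in EpiSC iPS against EpiSC and 0 in the other 5 tests. At an unadjusted p under 0.05 in limma, those 5 held 1 (EpiSC iPS minus mESM), 2 (NOD EpiSC-like minus EpiSC) and 7 (between the EpiSC-like lines). They held 2 in NOD ES minus mESM and 3 in the interaction. The share of all genes at that unadjusted threshold is not given, so these counts are no result about the members. Between the EpiSC-like lines, normexp moved the median of all genes from 0.28 to 0.77. With normexp 31.6%, 6.55% and 3.21% of all genes were called in the state comparisons, and 0.0302% to 3.38% in the other 5 tests. With the slide block 5.38% of all genes were called in EpiSC iPS minus mESM. The share was 11.9% in the interaction with quantile normalization, and 28.1% between the EpiSC-like lines with the deposited table. Members called in EpiSC iPS minus mESM were 1 with the slide block, 1 with averaged mESM arrays and 1 to 2 with an array left out. They were 1 with averaged mESM arrays and 1 to 2 with an array left out in NOD ES minus mESM. In the interaction they were 1 (Tex19.1) with quantile normalization, 1 with averaged mESM arrays and 1 to 2 with an array left out. The iPS line against the ES line had 1 with the deposited table and 2 to 2 with an array left out. NOD EpiSC-like minus EpiSC had 1 to 2, the second being Mael without iPS line 6 passage 7.

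Signs turned under normexp for Stk31 in NOD EpiSC-like minus NOD ES (0.33), Tex19.1 in NOD EpiSC-like minus EpiSC (0.20) and between the EpiSC-like lines (1.13), Sycp3 between these lines (1.88), Rbmxl2 in the interaction (0.63), and Dazl in EpiSC iPS (0.04) and NOD ES (0.06) minus mESM. Only the first 3 had been called. Dazl, uncalled in these tests, was at 0.15 in EpiSC iPS minus mESM with the slide block, and without both doubtful arrays 0.41 in NOD ES minus mESM and -0.02 in the interaction. Rbmxl2 was -0.18 in NOD EpiSC-like minus EpiSC with quantile normalization. With an array left out, uncalled signs also turned. Dazl ran from -0.51 to 0.38 in EpiSC iPS minus mESM, -0.34 to 0.41 in NOD ES minus mESM and -0.39 to 1.34 in the interaction. Sycp3 ran from -0.37 to 1.36 in NOD EpiSC-like minus EpiSC and from -0.76 to 0.41 between the lines, Rbmxl2 from -0.16 to 0.38 in NOD EpiSC-like minus EpiSC, and Stk31 from -0.09 to 1.6 in the interaction. Of 767 member values under alternatives, 703 kept direction and call. The cause of these changes was not tested. Normexp left little range on some NOD EpiSC-like arrays. Every member stood at -0.03 on iPS line 6 passage 7, and between -0.13 and -0.1 on ES line 1 passage 7. No paired analysis was possible because the labels number replicates in 1 group alone, and slides, which only some groups share, were fitted as a random block instead. Signal over background limits Ddx4, Stk31, the Dazl probe used and, in EpiSC, Sycp3 and Rbmxl2 to bounds, and leaves Sycp3 and Rbmxl2 measured on 1 of 6 NOD EpiSC-like arrays.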
